A study of Homo sapiens with 4 samples.

Results

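The genes described here encode enzymes that build cholesterol and fatty acids, together with the proteins that control them. The 33 members are a named list matched by gene symbol with no threshold on their values, and all 33 were found among the 17791 genes of the deposited table. RNA came from engineered prostate cancer tissues, human cells grown in a poly(ethylene glycol)-fibrinogen hydrogel, at day 15 of culture and without further treatment. There were 4 libraries in 4 groups of 1. The LNCaP coculture and the PC-3 coculture held 5 cancer cells to 1 BJ-5ta fibroblast at seeding, and the LNCaP monoculture and the PC-3 monoculture held cancer cells alone. LNCaP is a prostate cancer line labelled as androgen-dependent, PC-3 a prostate cancer line labelled CRPC-ne (castration-resistant prostate cancer, with a suffix the labels do not explain), and BJ-5ta an immortalised line of human skin fibroblasts, of which no library without cancer cells is used here. Each line is 1 established cell line, so LNCaP against PC-3 is a comparison of 2 lines and not of 2 disease classes. The labels describe a serum-containing PC-3 medium for the tissues and do not say which medium the LNCaP tissues had or which hydrogel stiffness was sequenced. The design text says that RNA came from more than 2 tissues, without saying how they were pooled, and each group has 1 column, so the spread between tissues could not be measured and no difference was tested.

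Cells make cholesterol from acetyl-CoA through mevalonate, farnesyl diphosphate, squalene and lanosterol, and they make fatty acids from the same acetyl-CoA through malonyl-CoA. Both branches are driven by the membrane-bound transcription factors SREBP-1 and SREBP-2, which the escort protein SCAP carries to the Golgi when sterols are scarce and which INSIG proteins hold back when sterols are plentiful. Prostate cancer cells often express fatty acid synthase strongly, and androgens are known to raise lipid synthesis genes in androgen-responsive prostate cells.

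The estimated counts summed to between 15520243 and 15865690 per library. CPM here means counts per 1000000 after TMM scaling, and every fold is a ratio of such scaled counts with an exact 95% interval for counting error alone. Members were well covered, with at least 76 counts for each gene in each library, and 32 of 33 had 100 counts or more in either PC-3 library. The 6 LNCaP markers all reached 1 CPM in both LNCaP libraries. They were not all absent from PC-3 tissues, where 4 reached that level with fibroblasts and 3 without. Their PC-3 sums were 413 CPM (coculture) and 462 CPM (monoculture), beside 10218 and 8367 CPM for LNCaP. TMPRSS2 made up nearly all of the PC-3 sums, at 407 CPM (coculture) and 458 CPM (monoculture). KLK3, prostate-specific antigen, had 74134 and 60226 counts in the LNCaP coculture and monoculture, against 0 in either PC-3 library, which allows up to 0.191 CPM in the coculture and 0.188 CPM in the monoculture. COL1A2, type I collagen, had 3577 and 2026 counts in the LNCaP and PC-3 cocultures, against 0 and 1 in their monocultures. Of 17 fibroblast markers, 16 reached 1 CPM in either coculture, against 4 in the LNCaP monoculture and 7 in the PC-3 monoculture. Their summed level was 1556 CPM in the LNCaP coculture, against 131 CPM in the LNCaP monoculture, and 1679.5 CPM in the PC-3 coculture, against 1154 CPM in the PC-3 monoculture, with VIM, which the cancer cells also express, the largest term in every library. At 0 counts were 7 markers in the LNCaP monoculture (COL1A2, DCN, LUM, PDGFRA, FAP, POSTN and MMP2) and 4 in the PC-3 monoculture (THY1, POSTN, MMP2 and TIMP3), POSTN being the 1 marker at 0 in the LNCaP coculture. Of 4 hepatocyte markers, 3 were in the table and summed to 2.19 CPM or less in each library. Of 5 adipocyte markers, 3 were in the table, and they summed to 1.81 and 2.79 CPM in the LNCaP coculture and monoculture, against 65.9 and 93.3 CPM in the PC-3 coculture and monoculture. FABP4, a fatty acid binding protein, had 0 and 2 counts in the LNCaP coculture and monoculture, against 934 and 1401 in the PC-3 coculture and monoculture. In bulk RNA, fewer cells of a type and less RNA per cell cannot be told apart, and a coculture value mixes RNA of the cancer cells and the fibroblasts.

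The promoters are shown for 5 members that stand for the contrasts described below. SREBF2 and SREBF1 encode the SREBP factors, ACLY and ELOVL6 were higher in LNCaP, and MVD was lower in LNCaP. Each window runs from 250 bases before to 50 bases after 1 RefSeq start on GRCh38.p14, read 5′ to 3′ on the gene's strand, with capitals marking matches on either strand to the sterol regulatory element type TCACNCCAC (any base at N), the CCAAT box CCAAT and the GC box GGGCGG. The windows lie at chr22:41832855-41833154 (plus strand), chr17:17836937-17837236 (minus), chr17:41918973-41919272 (minus), chr4:110198566-110198865 (minus) and chr16:88663042-88663341 (minus).
SREBF2: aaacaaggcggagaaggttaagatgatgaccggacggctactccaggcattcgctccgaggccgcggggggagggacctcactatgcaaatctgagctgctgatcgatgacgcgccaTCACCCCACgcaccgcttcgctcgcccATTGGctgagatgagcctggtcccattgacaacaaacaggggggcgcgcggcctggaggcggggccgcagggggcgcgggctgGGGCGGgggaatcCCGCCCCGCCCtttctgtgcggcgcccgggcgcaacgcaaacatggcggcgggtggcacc
SREBF1: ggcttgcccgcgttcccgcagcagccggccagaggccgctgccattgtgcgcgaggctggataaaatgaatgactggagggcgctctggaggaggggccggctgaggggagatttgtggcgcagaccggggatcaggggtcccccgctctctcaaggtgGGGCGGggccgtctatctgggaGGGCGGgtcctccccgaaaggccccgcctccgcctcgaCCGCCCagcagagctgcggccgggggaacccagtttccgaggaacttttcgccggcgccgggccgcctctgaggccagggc
ACLY: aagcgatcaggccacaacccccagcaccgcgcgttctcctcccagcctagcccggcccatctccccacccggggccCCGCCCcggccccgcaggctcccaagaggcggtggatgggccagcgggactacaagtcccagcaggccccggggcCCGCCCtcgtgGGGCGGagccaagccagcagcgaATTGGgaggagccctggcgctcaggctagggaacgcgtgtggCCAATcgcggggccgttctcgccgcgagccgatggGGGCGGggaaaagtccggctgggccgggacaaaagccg
ELOVL6: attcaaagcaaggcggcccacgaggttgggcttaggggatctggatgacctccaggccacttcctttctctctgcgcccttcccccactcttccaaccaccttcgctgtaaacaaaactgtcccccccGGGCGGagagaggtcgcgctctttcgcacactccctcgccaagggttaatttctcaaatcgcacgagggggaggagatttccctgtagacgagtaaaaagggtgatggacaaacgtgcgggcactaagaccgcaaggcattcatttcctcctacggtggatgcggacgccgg
MVD: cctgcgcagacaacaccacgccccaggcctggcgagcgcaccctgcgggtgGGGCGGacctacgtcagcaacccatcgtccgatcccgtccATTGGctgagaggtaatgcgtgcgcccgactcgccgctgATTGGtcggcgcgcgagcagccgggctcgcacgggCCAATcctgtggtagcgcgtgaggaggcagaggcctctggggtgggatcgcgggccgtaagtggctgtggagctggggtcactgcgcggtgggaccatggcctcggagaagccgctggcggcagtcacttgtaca

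RefSeq windows were matched for 29 of the 33 members. A sterol regulatory element type was found in 1 of these 29, SREBF2, as TCACCCCAC at position -133 relative to the start site, and in 313 of all 27305 promoter windows (1.15%). A CCAAT box stood in 18 of the 29 (62.1%), against 35.7% of all windows, and a GC box in 26 (89.7%), against 44.6%. The letters differ between the windows shown: the SREBF2 window holds all 3 motifs, with 3 GC boxes of which 2 overlap by 1 base, MVD has 3 CCAAT boxes and 1 GC box, ACLY has 2 CCAAT boxes and 4 GC boxes, SREBF1 has 3 GC boxes and no CCAAT box, and ELOVL6 has 1 GC box alone. These matches describe the sequence only, and many genes have further start sites outside the window.

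Members took a larger share of the RNA in LNCaP tissues. Their counts made up 1.23% of the TMM-scaled library total in the LNCaP coculture and 1.17% in the LNCaP monoculture. The shares were 0.577% in the PC-3 coculture and 0.517% in its monoculture. The fatty acid branch and the control genes differed between the lines in sum, and the sterol branch did so little. The 10 genes that supply acetyl-CoA and NADPH and that build, elongate and desaturate fatty acids summed to 9118 CPM in the LNCaP coculture and 8688 in the LNCaP monoculture, against 3278 in the PC-3 coculture and 2882 in its monoculture. The 18 genes of the sterol pathway summed to 1673 and 1636 CPM in the LNCaP coculture and monoculture, against 1765 and 1632 in the PC-3 coculture and monoculture, so the LNCaP sum was 0.948 times the PC-3 sum in coculture and 1.00 times in monoculture. The 5 control and sterol transfer genes summed to 1482 and 1346 CPM in the LNCaP coculture and monoculture, against 723 and 655 in the PC-3 coculture and monoculture. Without FASN, the largest contributor in LNCaP, the other 9 fatty acid genes still summed to 2.01 times the PC-3 level in coculture and 2.03 times in monoculture.

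**Figure D1:**
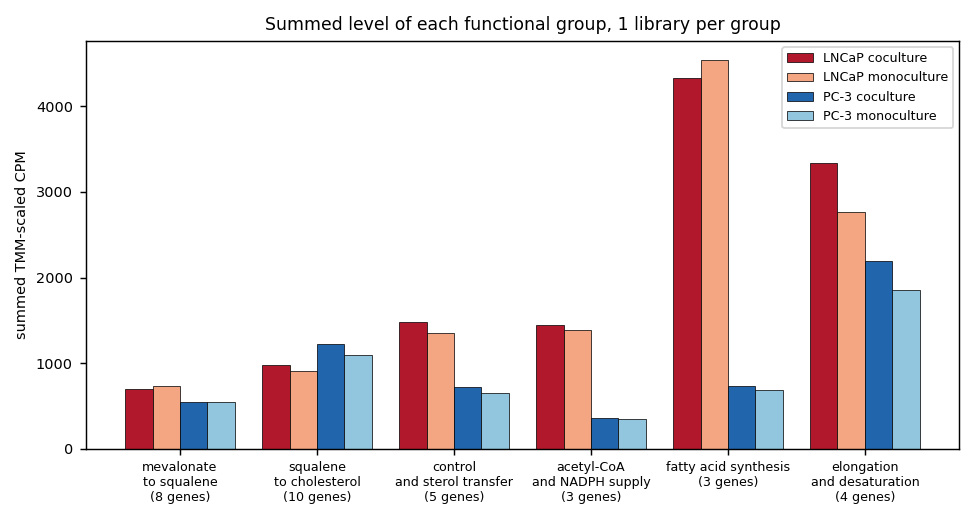
Summed TMM-scaled CPM (vertical axis, from 0) of the members in each of 6 functional groups, 1 bar per library and no error bars because each group is 1 library. The fatty acid synthesis bars reach 4328 and 4541 CPM in the LNCaP coculture and monoculture, against 730.4 and 685 in the PC-3 libraries, while the squalene to cholesterol bars reach 982 and 906 CPM in the LNCaP libraries, against 1222 and 1093 in the PC-3 libraries.

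The order of the genes within a library also differed between the lines. On the scale of CPM per kilobase of exon, which allows levels of different genes to be compared, FASN ranked first in LNCaP with 438 and 467 in coculture and monoculture, followed by SCD (374 and 318), ACLY (296 and 286), FADS2 (218 and 166) and SREBF1 (136 and 125). SCD ranked first in PC-3 with 203 and 178 in coculture and monoculture, followed by FADS2 (164 and 131), and the sterol genes FDPS (84.9 and 84.7), DHCR7 (89.4 and 76.2) and SQLE (73.9 and 58.1) took 3 of the next 4 places in both PC-3 libraries. At the low end, ACACB had 1.09 and 1.24 per kilobase in the LNCaP libraries, and ELOVL6 had 0.808 and 0.718 in the PC-3 libraries. Summed on this scale, the fatty acid genes stood at 2.30 and 2.17 times the sterol genes in the LNCaP coculture and monoculture, against 0.830 and 0.781 times in the PC-3 coculture and monoculture.

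**Figure D2:**
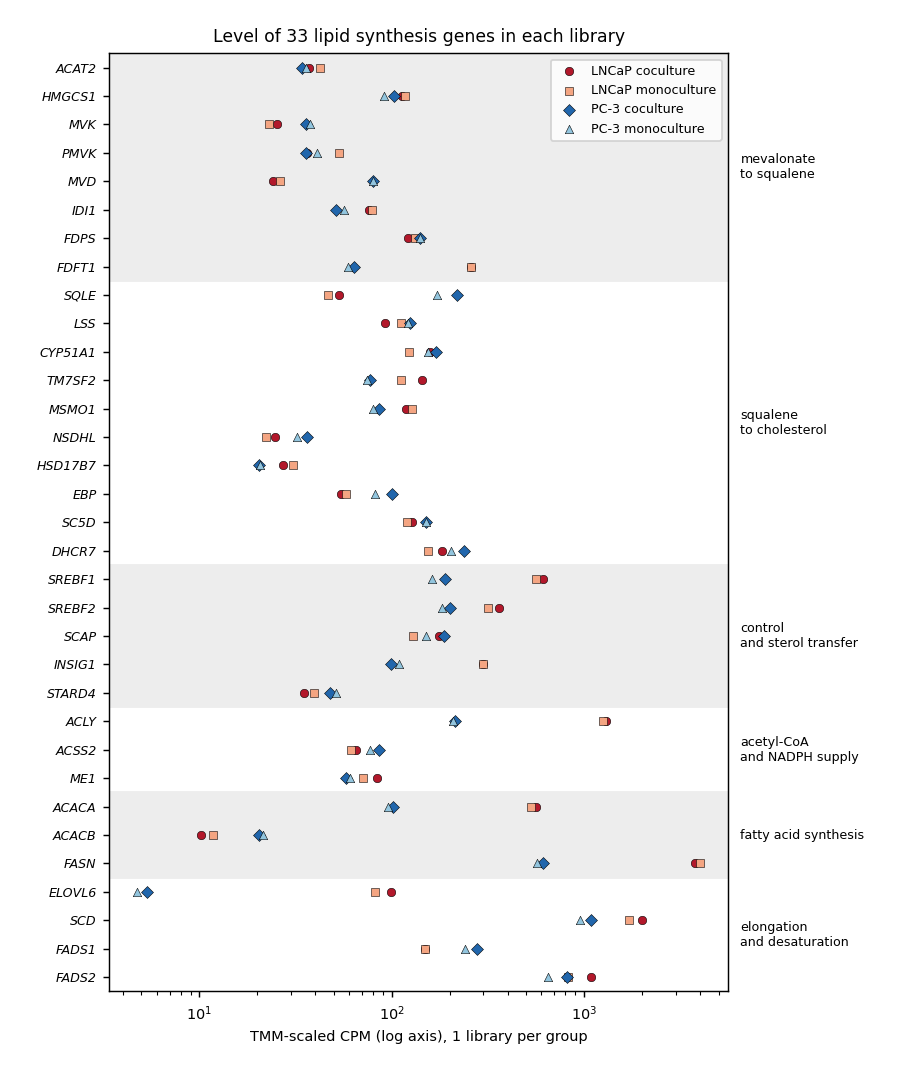
TMM-scaled CPM (log axis) of the 33 members in each of the 4 libraries, grouped by function from top to bottom, with 1 point per library; points of the same line often overlap. ELOVL6, FASN, ACLY, ACACA and FDFT1 separate the LNCaP points from the PC-3 points on the right, and SQLE and MVD separate them the other way.

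LNCaP was compared with PC-3 to see how the lipid genes differ between tissues made from these lines. Acetyl-CoA carboxylase, ATP citrate lyase, fatty acid synthase and the elongase ELOVL6 were several times higher in LNCaP, squalene synthase was higher, and squalene monooxygenase and MVD were lower, with or without fibroblasts. In monoculture, 10 of 33 members were higher in LNCaP by 1.5-fold or more and 5 were lower, beside 32.3% higher and 31.4% lower among the 15160 genes with 1 CPM or more in 1 of the 2 libraries. At 2-fold, 7 members were higher and 2 lower, beside 22.1% and 23.6% of these genes. In coculture, 10 members passed 1.5-fold upwards and 5 downwards, beside 31.0% and 32.1% of 15155 genes, and 7 passed 2-fold upwards and 2 downwards, beside 20.7% and 23.6%. The shares of higher members, 30.3% at 1.5-fold and 21.2% at 2-fold in either comparison, were near the share of all genes. The number of higher members is therefore no result about lipid genes. Lower members made up 15.2% at 1.5-fold and 6.06% at 2-fold in either comparison, below the shares of all genes. This gap was not tested, and the limit of 1 CPM lets in genes below the level of any member. Which members differed and by how much is described next. The median log2 fold over the members was 0.24 in monoculture, beside 0.04 over all genes, and 0.13 in coculture, beside 0.01.

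Of the acetyl-CoA and NADPH supply genes, ACLY passed 1.5-fold and the other 2 did not. ACLY, which splits citrate into cytosolic acetyl-CoA (chromosome 17, 41866917 to 41930545), had 1298 CPM in the LNCaP coculture and 1253 in its monoculture, against 214 in the PC-3 coculture and 209 in its monoculture. Both LNCaP libraries lay far above both PC-3 libraries, by 6.00-fold in monoculture (5.79 to 6.23) and 6.07-fold in coculture (5.85 to 6.29). ACSS2, which makes acetyl-CoA from acetate, had 65.3 and 61.4 CPM in the LNCaP coculture and monoculture, against 85.8 and 77.2 CPM in the PC-3 coculture and monoculture, a fold of 0.795 in monoculture. On the per-kilobase scale ACLY stood at 14.1 and 14.5 times ACSS2 in the LNCaP coculture and monoculture, against 1.77 and 1.92 times in the PC-3 coculture and monoculture. ME1, the cytosolic malic enzyme that yields NADPH, was closer between the lines, with 84.1 and 70.9 CPM in the LNCaP coculture and monoculture, against 58.1 and 60.6 CPM in the PC-3 coculture and monoculture.

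Fatty acid synthesis itself differed most of the 6 functional groups by its sum. FASN, the multifunctional enzyme that makes palmitate (chromosome 17, 82078338 to 82098236), had 3754 CPM in the LNCaP coculture and 3999 in its monoculture, against 609 in the PC-3 coculture and 568 in its monoculture. The LNCaP values exceeded the PC-3 values by 7.04-fold in monoculture (6.89 to 7.20) and 6.17-fold in coculture (6.04 to 6.30). FASN alone made up 30.6% and 34.3% of all member counts in the LNCaP coculture and monoculture, against 10.6% and 11.0% in the PC-3 coculture and monoculture. ACACA, the cytosolic acetyl-CoA carboxylase that makes malonyl-CoA (chromosome 17, 37084992 to 37406836), had 564 CPM in the LNCaP coculture and 530.2 in its monoculture, against 101 in the PC-3 coculture and 96.0 in its monoculture, a fold of 5.52 in monoculture (5.23 to 5.84) and 5.58 in coculture (5.29 to 5.89). Its paralog ACACB, whose product sits at mitochondria and restrains fatty acid oxidation, ran the other way at low level, with 10.2 and 11.7 CPM in the LNCaP coculture and monoculture, against 20.5 and 21.5 CPM in the PC-3 coculture and monoculture. ACACB was 1.83-fold lower in the LNCaP monoculture (1.53 to 2.21) and 2.00-fold lower in the LNCaP coculture (1.65 to 2.43). Per kilobase, ACACA stood at 47.1 and 38.8 times ACACB in the LNCaP coculture and monoculture, against 4.23 and 3.83 times in the PC-3 coculture and monoculture.

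Elongation and desaturation genes were split. ELOVL6, which lengthens palmitate towards stearate (chromosome 4, 110045846 to 110199202), had the largest fold of any member, with 1538 counts in the LNCaP coculture and 1288 in the LNCaP monoculture, against 84 in the PC-3 coculture and 76 in its monoculture. That is 17.1-fold higher in the LNCaP monoculture (13.6 to 21.9) and 18.5-fold higher in the LNCaP coculture (14.8 to 23.3). SCD, which puts the first double bond into stearate and palmitate, was high in every library, with 2007 CPM in the LNCaP coculture and 1706 in its monoculture, against 1089.5 in the PC-3 coculture and 953 in its monoculture, and LNCaP exceeded PC-3 by 1.79-fold in monoculture and 1.84-fold in coculture. The desaturases of polyunsaturated fatty acids diverged. FADS1 had 149 and 148 CPM in the LNCaP coculture and monoculture, against 279 and 241 CPM in the PC-3 coculture and monoculture, and was 1.62-fold lower in the LNCaP monoculture (1.54 to 1.71) and 1.88-fold lower in the LNCaP coculture (1.79 to 1.98). FADS2 had 1088 and 825 CPM in the LNCaP coculture and monoculture, against 816 and 652 CPM in the PC-3 coculture and monoculture, and was 1.27-fold higher in the LNCaP monoculture and 1.33-fold higher in the LNCaP coculture, both within 1.5-fold. The exons of FADS1 and FADS2 overlap by 142 bases on opposite strands, and the library kit does not mark strand, so reads in that stretch could be assigned to either gene.

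Early sterol synthesis differed at 3 of its 8 genes. FDFT1, squalene synthase, had 257 CPM in the LNCaP coculture and 258 in its monoculture, against 63.6 in the PC-3 coculture and 59.1 in its monoculture. Both LNCaP libraries lay above both PC-3 libraries, by 4.36-fold in monoculture (4.06 to 4.68) and 4.04-fold in coculture (3.77 to 4.34). MVD, the decarboxylase that ends the mevalonate steps (chromosome 16, 88651940 to 88663091), had 24.2 and 26.2 CPM in the LNCaP coculture and monoculture, against 80.0 and 79.5 CPM in the PC-3 coculture and monoculture. LNCaP was lower by 3.03-fold in monoculture (2.71 to 3.40) and 3.31-fold in coculture (2.95 to 3.72). MVK, mevalonate kinase, had 25.3 and 22.9 CPM in the LNCaP coculture and monoculture, against 35.9 and 37.7 CPM in the PC-3 coculture and monoculture. It was 1.65-fold lower in the LNCaP monoculture (1.44 to 1.88) and 1.42-fold lower in the LNCaP coculture (1.24 to 1.62), the second value short of 1.5-fold. The other 5 genes stayed within 1.5-fold in both comparisons. HMGCS1, the cytosolic HMG-CoA synthase, had 114 and 117 CPM in the LNCaP coculture and monoculture, against 103 and 90.7 CPM in the PC-3 coculture and monoculture, and IDI1, which interconverts the 2 isoprene units, had 75.9 and 79.0 CPM in the LNCaP coculture and monoculture, against 51.1 and 56.3 CPM in the PC-3 coculture and monoculture. HMGCS1 had folds of 1.29 in monoculture and 1.10 in coculture, and IDI1 came nearer to 1.5-fold, with 1.40 and 1.49. FDPS, farnesyl diphosphate synthase, had 121 and 132 CPM in the LNCaP coculture and monoculture, against 139.8 and 139.6 CPM in the PC-3 coculture and monoculture. PMVK, phosphomevalonate kinase, had 36.2 and 53.1 CPM in the LNCaP coculture and monoculture, against 35.7 and 41.0 CPM in the PC-3 coculture and monoculture. ACAT2, the cytosolic acetoacetyl-CoA thiolase, had 37.3 and 42.2 CPM in the LNCaP coculture and monoculture, against 34.1 and 35.6 CPM in the PC-3 coculture and monoculture. In monoculture the fold was 0.946 for FDPS, 1.30 for PMVK and 1.19 for ACAT2, each within 1.5-fold. Part of the ACAT2 exons lies opposite exons of SOD2-OT1, SOD2 and TCP1, by 1458, 1106 and 397 bases. FDPS has a pseudogene copy, FDPSP2, in the table, so reads of ACAT2 and of FDPS may be shared with other genes. Other members overlap genes of the table by 7 to 476 bases (CYP51A1, FADS2, FDPS, IDI1, MVK, SREBF2, STARD4 and TM7SF2).

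SQLE, squalene monooxygenase, had the lowest LNCaP over PC-3 fold of any member in both comparisons. It had 53.5 CPM in the LNCaP coculture and 46.5 in its monoculture, against 219 in the PC-3 coculture and 173 in its monoculture, and was 3.71-fold lower in the LNCaP monoculture (3.42 to 4.03) and 4.10-fold lower in the LNCaP coculture (3.80 to 4.43). The enzymes on either side of squalene were thus ordered in opposite ways: per kilobase, SQLE stood at 0.322 and 0.280 times FDFT1 in the LNCaP coculture and monoculture, against 5.34 and 4.52 times in the PC-3 coculture and monoculture. Most steps after it differed little. LSS, which closes squalene epoxide to lanosterol, had 92.4 and 112 CPM in the LNCaP coculture and monoculture, against 124 and 121 CPM in the PC-3 coculture and monoculture. CYP51A1, the lanosterol demethylase, had 158 and 123 CPM in the LNCaP coculture and monoculture, against 169 and 155 CPM in the PC-3 coculture and monoculture. Neither gene passed 1.5-fold, with monoculture folds of 0.926 for LSS and 0.794 for CYP51A1. SC5D, a sterol desaturase, had 127 and 120.0 CPM in the LNCaP coculture and monoculture, against 151 and 151 CPM in the PC-3 coculture and monoculture. DHCR7, the reductase that yields cholesterol, had 182 and 154 CPM in the LNCaP coculture and monoculture, against 238 and 203 CPM in the PC-3 coculture and monoculture. NSDHL, a sterol dehydrogenase, had 24.8 and 22.2 CPM in the LNCaP coculture and monoculture, against 36.4 and 32.1 CPM in the PC-3 coculture and monoculture. The LNCaP values of these 3 genes were the lower ones in both comparisons, with monoculture folds of 0.794 for SC5D, 0.758 for DHCR7 and 0.691 for NSDHL, all within 1.5-fold.

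MSMO1, TM7SF2, HSD17B7 and EBP lay near 1.5-fold in 1 of the comparisons or both. MSMO1, a methylsterol oxidase, had 119 and 127 CPM in the LNCaP coculture and monoculture, against 86.3 and 80.4 CPM in the PC-3 coculture and monoculture, a fold of 1.58 in monoculture and 1.38 in coculture. TM7SF2, a sterol reductase, had 143 and 112 CPM in the LNCaP coculture and monoculture, against 77.0 and 74.7 CPM in the PC-3 coculture and monoculture, a fold of 1.50 in monoculture, just short of 1.5-fold on the log2 scale used, and 1.86 in coculture. HSD17B7, a sterol ketoreductase with a pseudogene copy, HSD17B7P2, in the table, had 27.1 and 30.8 CPM in the LNCaP coculture and monoculture, against 20.5 and 20.6 CPM in the PC-3 coculture and monoculture, with folds of 1.49 in monoculture and 1.32 in coculture. EBP, the sterol isomerase, had 54.6 and 58.0 CPM in the LNCaP coculture and monoculture, against 99.8 and 82.1 CPM in the PC-3 coculture and monoculture, a fold of 0.706 in monoculture and 0.547 in coculture. The PC-3 coculture had the highest of the 4 EBP values.

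The control genes were higher in LNCaP for 3 of 5 members. SREBF1, which encodes SREBP-1, the form best known for fatty acid genes (chromosome 17, 17811334 to 17836986), had 609 CPM in the LNCaP coculture and 563 in its monoculture, against 189.7 in the PC-3 coculture and 161 in its monoculture, a fold of 3.49 in monoculture (3.34 to 3.65) and 3.21 in coculture (3.08 to 3.35). SREBF2, which encodes SREBP-2, the form best known for sterol genes, had 363 CPM in the LNCaP coculture and 316 in its monoculture, against 200.1 in the PC-3 coculture and 183 in its monoculture, a fold of 1.73 in monoculture (1.65 to 1.81) and 1.82 in coculture (1.74 to 1.90). Per kilobase, SREBF1 stood at 2.00 and 2.13 times SREBF2 in the LNCaP coculture and monoculture, against 1.13 and 1.05 times in the PC-3 coculture and monoculture. INSIG1, which retains the SCAP and SREBP complex and is itself an SREBP target, had 298 and 298 CPM in the LNCaP coculture and monoculture, against 99.5 and 109 CPM in the PC-3 coculture and monoculture, a fold of 2.73 in monoculture and 3.00 in coculture. The remaining members of this group stayed within 1.5-fold. SCAP, the escort, had 176 and 129.6 CPM in the LNCaP coculture and monoculture, against 186 and 151 CPM in the PC-3 coculture and monoculture, with folds of 0.860 in monoculture and 0.945 in coculture. STARD4, a sterol carrier, had 35.0 and 39.5 CPM in the LNCaP coculture and monoculture, against 47.9 and 51.4 CPM in the PC-3 coculture and monoculture, with folds of 0.769 in monoculture and 0.730 in coculture.

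**Figure D3:**
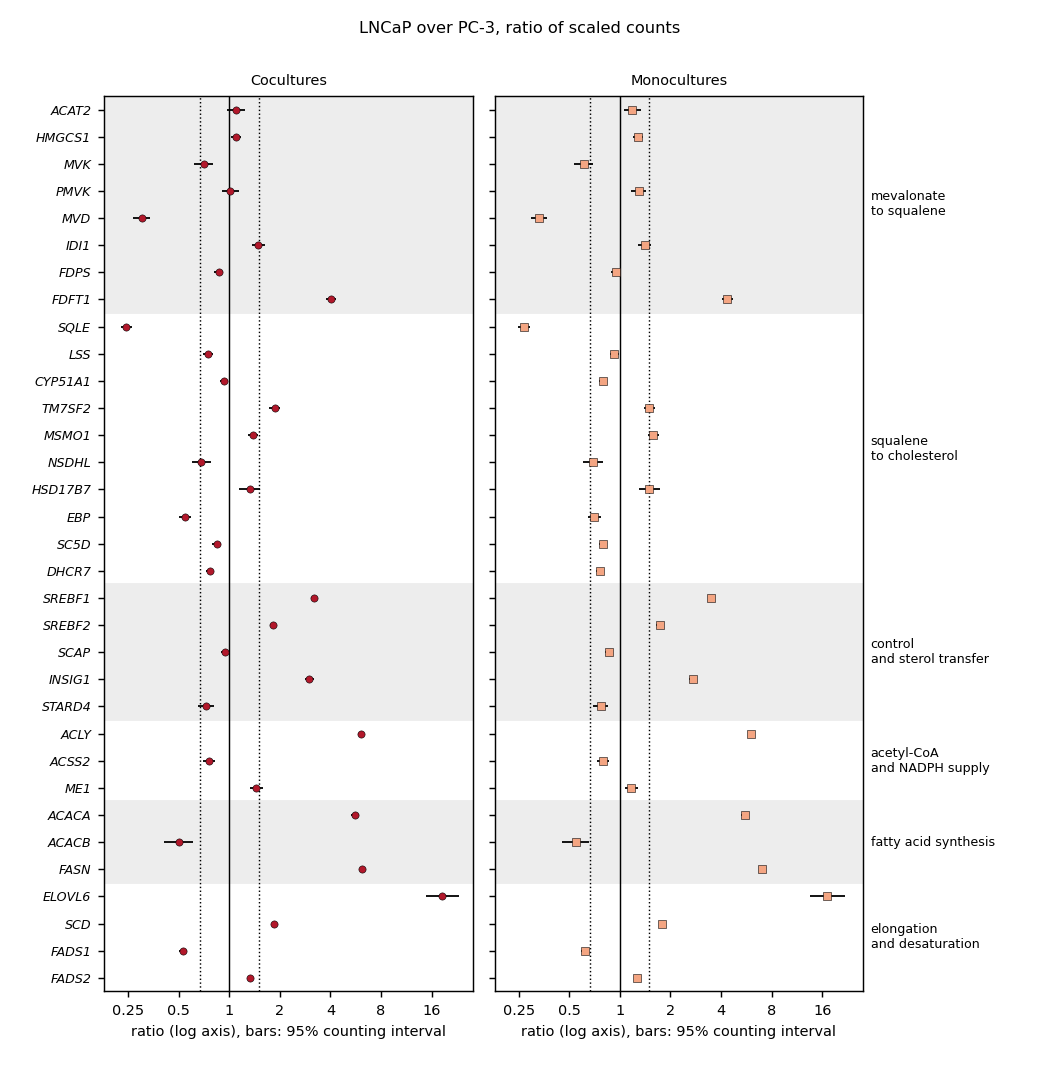
Ratio of LNCaP to PC-3 scaled counts (log axis) for each member in coculture (left) and monoculture (right), with bars for the 95% counting interval, a solid line at 1 and dotted lines at 1.5-fold in either direction. ELOVL6, FASN, ACLY, ACACA, FDFT1, SREBF1 and INSIG1 lie beyond 2-fold to the right in both panels, and SQLE and MVD beyond 2-fold to the left.

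Each coculture was set against the monoculture of its line, which asks how the lipid genes differ with fibroblasts in the tissue. No member reached 1.5-fold in either direction in either line. In LNCaP tissues 0 of 33 were higher and 0 lower, beside 7.88% higher and 8.94% lower among 14119 genes. In PC-3 tissues 0 of 33 were higher and 0 lower, beside 4.65% and 3.86% of 14417 genes. These shares include genes near 1 CPM, whose counting error is larger than that of the members, which had medians of 90.7 to 119 CPM per library. No share over genes at the level of the members is given here. The log2 folds of the members ran between -0.55 and 0.44 in LNCaP tissues, with a median of 0.05, and between -0.20 and 0.35 in PC-3 tissues, with a median of 0.10. All genes tested had a median of 0.00 in both. Below 1.5-fold, counting intervals lay above 1 for 13 members, below 1 for 7 and held 1 for 13 in LNCaP tissues. The corresponding numbers were 14, 2 and 17 in PC-3 tissues. Among all tested genes, of any fold, intervals lay above 1 for 27.8% and below 1 for 25.8% in LNCaP tissues. In PC-3 tissues these shares were 21.5% and 20.4%. These intervals leave out any spread between tissues, so they do not show that a coculture differs from its monoculture.

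**Figure D4:**
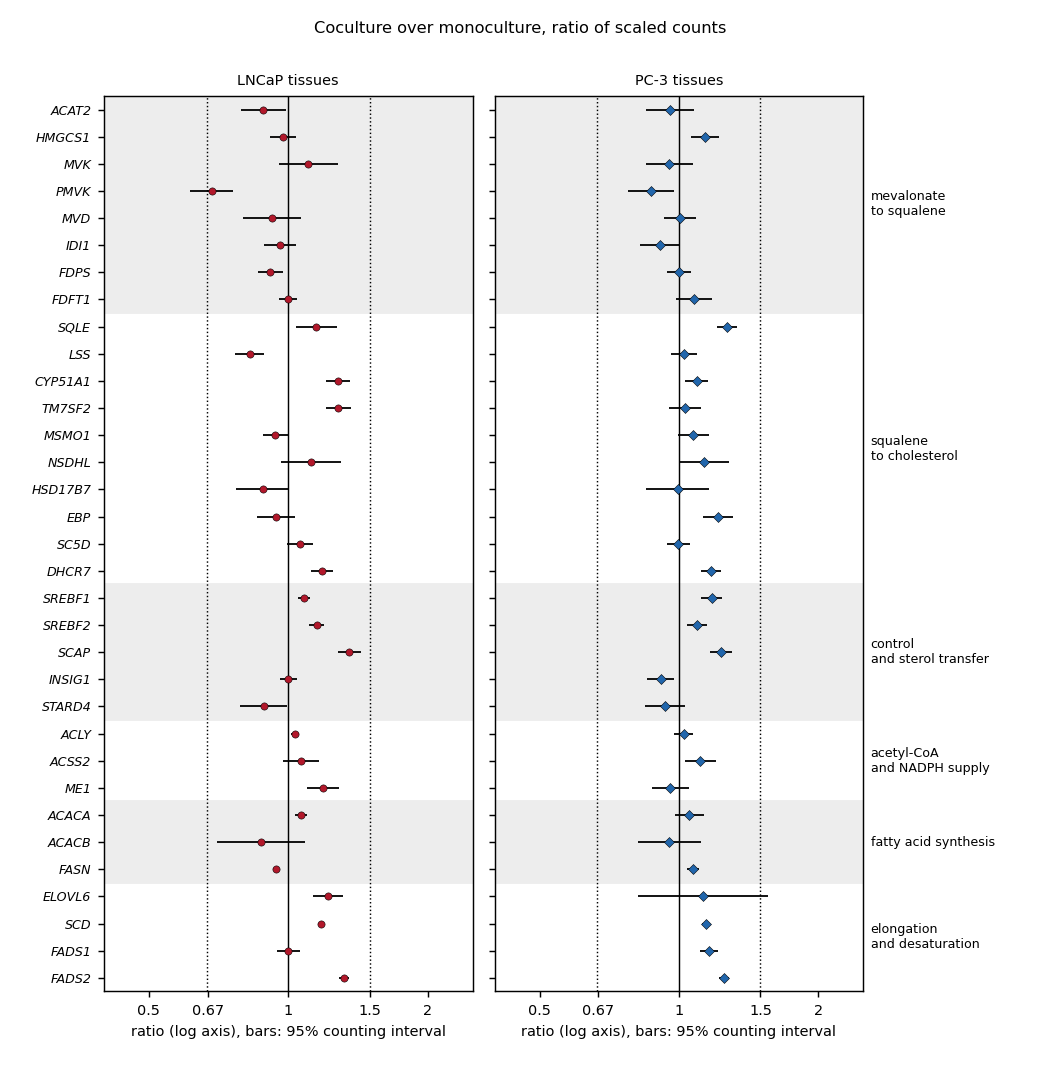
Ratio of coculture to monoculture scaled counts (log axis) for each member in LNCaP tissues (left) and PC-3 tissues (right), with bars for the 95% counting interval, a solid line at 1 and dotted lines at 1.5-fold. All 33 points lie between the dotted lines in both panels, with PMVK in LNCaP tissues the nearest to one.

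SCAP and the desaturase gene FADS2 were among the 3 highest coculture folds in both lines. FADS2 was 1.32-fold higher in the LNCaP coculture (1.29 to 1.35) and 1.25-fold higher in the PC-3 coculture (1.22 to 1.28). SCD, the more abundant desaturase, was 1.18-fold higher in LNCaP tissues (1.16 to 1.20) and 1.14-fold in PC-3 tissues (1.12 to 1.17). SCAP was 1.36-fold higher in LNCaP tissues (1.28 to 1.44) and 1.23-fold in PC-3 tissues (1.17 to 1.30). DHCR7 was 1.18-fold higher in LNCaP tissues and 1.17-fold in PC-3 tissues, SQLE 1.15-fold and 1.27-fold, and CYP51A1 1.28-fold and 1.09-fold. Both SREBP genes were slightly higher, SREBF1 by 1.08-fold and 1.18-fold and SREBF2 by 1.15-fold and 1.09-fold in LNCaP and PC-3 tissues. The fibroblast markers differ between the same libraries, as given above, and their part in these small folds was not tested.

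Among the members past 2-fold between the lines, SQLE had coculture folds of 1.15 in LNCaP tissues and 1.27 in PC-3 tissues, SREBF1 of 1.08 and 1.18, and FASN of 0.939 and 1.07. ACLY had a coculture fold of 1.04 in LNCaP tissues and 1.02 in PC-3 tissues, ACACA of 1.06 and 1.05, FDFT1 of 0.999 and 1.08, INSIG1 of 1.00 and 0.913, and MVD of 0.922 and 1.01. ELOVL6 was 1.22-fold higher in the LNCaP coculture (1.13 to 1.31), and in PC-3 tissues its fold of 1.13 rested on 84 counts in the PC-3 coculture against 76 in the PC-3 monoculture with an interval of 0.816 to 1.56. A difference within that interval was not detectable at this depth.

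Intervals below 1 were found for 7 members in LNCaP tissues and 2 in PC-3 tissues, beside 25.8% and 20.4% of all tested genes. PMVK had 562 counts in the LNCaP coculture, against 838 in the LNCaP monoculture, a fold of 0.683 (0.612 to 0.761), and 559 in the PC-3 coculture, against 654 in the PC-3 monoculture, a fold of 0.871 (0.776 to 0.976). PMVK is also the shortest member, with 1280 bases of exon, and short genes had lower coculture values in both lines. The median log2 fold of all genes in the shortest of 20 length bins was -0.34 in LNCaP tissues and -0.24 in PC-3 tissues. In the next bin, which holds PMVK, it was -0.17 in LNCaP tissues and -0.14 in PC-3 tissues. Relative to genes of like length, the log2 fold of PMVK was -0.38 in LNCaP tissues, against -0.55 without this adjustment, and -0.06 in PC-3 tissues, against -0.20. LSS was lower in the LNCaP coculture (fold 0.825, 0.769 to 0.885) and had a fold of 1.03 in PC-3 tissues. Its exons add up to 5373 bases. Smaller values below 1 in LNCaP tissues were those of ACAT2 (0.884), STARD4 (0.886), FDPS (0.915), FASN (0.939) and MSMO1 (0.938), each with an interval below 1, while HSD17B7 (0.880) and ACACB (0.875) had intervals that held 1. In PC-3 tissues INSIG1 was the other member besides PMVK with an interval below 1 (0.913, 0.852 to 0.978).

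**Figure D5:**
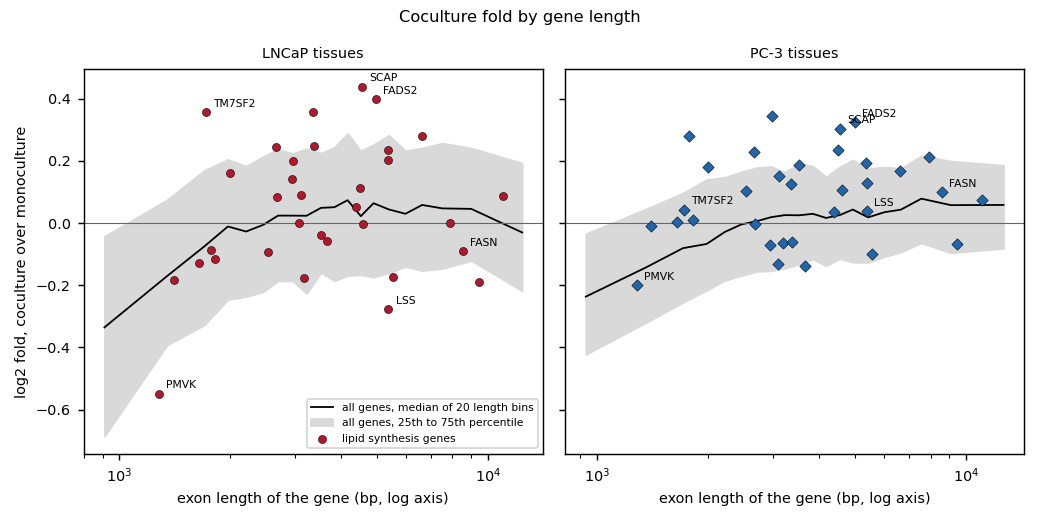
Coculture over monoculture log2 fold against exon length (bp, log axis) in LNCaP tissues (left) and PC-3 tissues (right); points are the 33 members, the line is the median of all tested genes in 20 length bins and the band their 25th to 75th percentile. The line lies below 0 for the shortest genes in both panels, and PMVK, the leftmost point, lies at -0.55 in LNCaP tissues and -0.20 in PC-3 tissues.

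For each gene, the PC-3 coculture log2 fold was subtracted from the LNCaP one. No member differed by 1.5-fold, with 0 of 33 higher and 0 lower, beside 11.2% higher and 12.3% lower among 15531 genes. These genes also include some near 1 CPM, below the level of any member. The differences ran between -0.37 and 0.31 on the log2 scale, with a median of -0.06. EBP had the lowest, with coculture folds of 0.941 in LNCaP tissues and 1.22 in PC-3 tissues, followed by PMVK and LSS. TM7SF2 had the highest, with 1.28 in LNCaP tissues and 1.03 in PC-3 tissues, and ME1 was next, with 1.19 and 0.958. FADS1 had 1.00 in LNCaP tissues and 1.16 in PC-3 tissues, although its neighbour FADS2 was higher in both cocultures. The counting interval of the difference lay above 0 for 7 of 33 members and below 0 for 9, beside 3129 and 2718 of the 15531 genes.

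The wider pathway was described with other lipid genes. A list of 64 related genes was used, of which 63 were in the table. In LNCaP tissues 3 of 59 measured genes were higher by 1.5-fold or more and 0 lower, beside 7.88% higher and 8.94% lower among all genes. PLIN2, a lipid droplet coat protein, had 83 counts in the LNCaP coculture against 10 in the LNCaP monoculture (8.45-fold, 4.37 to 18.3), whereas ABCA1, a cholesterol exporter (23 counts in the LNCaP coculture against 14 in the LNCaP monoculture), and ACSL5, an acyl-CoA synthetase (17 counts in the LNCaP coculture against 9 in the LNCaP monoculture), rested on few reads, with intervals that held 1. In PC-3 tissues 2 of 62 were higher and 1 lower, beside 4.65% and 3.86% of all genes. SOAT1, which esterifies cholesterol, had 564 counts in the PC-3 coculture against 360 in the PC-3 monoculture (1.60-fold, 1.40 to 1.83), MLXIPL, the carbohydrate-responsive transcription factor ChREBP, had 74 counts in the PC-3 coculture against 31 in the PC-3 monoculture (2.43-fold, 1.58 to 3.83), and the elongase ELOVL2 was lower with 21 counts in the PC-3 coculture against 38 in the PC-3 monoculture.

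Between the monocultures, 23 of 62 measured related genes were higher in LNCaP by 1.5-fold or more and 23 lower; between the cocultures the numbers were 22 and 22. These comparisons have the background shares given for the members. Folds in the rest of the account of related genes are between the monocultures. Sterol storage, export and sensing genes were lower in LNCaP for 6 of 11 and higher for 1, with 4 between. ABCA1 had 14 counts in the LNCaP monoculture against 1118 in the PC-3 monoculture, 79.0-fold lower (46.9 to 145), NPC1, which moves cholesterol out of lysosomes, was 4.26-fold lower, NR1H3 and NR1H2, which encode the LXR sterol receptors, were 3.50-fold and 2.00-fold lower, and NPC2, a lysosomal sterol carrier, and MYLIP, an LXR target, were 1.56-fold and 1.99-fold lower. SOAT1 was 1.68-fold higher. Of 7 triglyceride and droplet genes, 3 were higher and 4 lower. Higher were GPAM 2.21-fold and LPIN1 1.86-fold and the acyltransferase gene DGAT2. Lower beside PLIN2 and DGAT1 were AGPAT2 2.34-fold and PLIN3 1.92-fold. PLIN2 had 10 counts in the LNCaP monoculture against 2010 in the PC-3 monoculture, 199-fold lower in LNCaP (108 to 415), and the acyltransferase genes diverged, DGAT1 being 4.45-fold lower and DGAT2 2.31-fold higher.

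Genes around fatty acid synthesis were split. Of 19, 8 were higher in the LNCaP monoculture and 7 lower. Beside ELOVL5, HACD3 and ACSL1, the higher genes were ELOVL7 6.79-fold, SCD5 2.20-fold, SLC25A1 1.68-fold, MLXIPL 1.99-fold and OXSM 1.69-fold. Beside ELOVL3 and ACSL4, the lower genes were ELOVL2 4.70-fold, ELOVL4 14.2-fold, ACSL3 1.68-fold, ACSL5 10.2-fold and MID1IP1 1.62-fold. ELOVL5, which elongates polyunsaturated fatty acids, was 4.92-fold higher (4.73 to 5.13), and HACD3, a dehydratase of the elongation cycle, 3.31-fold higher. Among the acyl-CoA synthetases, ACSL1 was 7.53-fold higher and ACSL4, which prefers arachidonate, 11.9-fold lower. ELOVL3 had 0 counts in the LNCaP monoculture, against 21 in the PC-3 monoculture, and was at least 6.92-fold lower when 3 counts are allowed for the 0. Of 5 NADPH genes, 3 were higher, PGD 1.90-fold, TALDO1 2.31-fold and IDH1 1.74-fold. Of 13 fatty acid oxidation genes, 6 were higher, CPT2 2.18-fold, ACADVL 2.02-fold, ACADM 1.68-fold, HADH 3.97-fold, ECI1 2.89-fold and ECI2 1.87-fold. DECR1, which handles unsaturated fatty acids, was 3.29-fold lower, and SLC25A20, the mitochondrial carnitine carrier, 2.05-fold lower. LBR was 1.62-fold and GGPS1 1.69-fold higher and DHDDS 2.70-fold lower among 4 other isoprenoid and sterol genes, and MBTPS1, the protease that first cuts SREBP, was lower by 2.34-fold.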

How the data were processed

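Bulk RNA of 4 libraries, 1 per group, was extracted with QIAshredder and RNeasy kits and made into TruSeq RNA v2 libraries, which do not mark strand, per the labels. The deposited values are estimated counts for each gene, with library totals that differ; 33.7% to 34.1% of values were not whole, and all were rounded. Partek, STAR, FastQC and the hg38 build appear in the submitters' processing notes; their roles and settings, the annotation and any filter are not given in the sources used here. TMM factors (0.996 to 1.006) came from edgeR 4.0.16 and alternative size factors from DESeq2 1.42.0 in R 4.3.3; the rest used Python 3.11.15 and scipy 1.17.1. Log2 folds used a prior count of 2. A gene counted as higher or lower at 1.5-fold by this log2 fold, among genes with 1 CPM or more in 1 of the 2 libraries. Intervals are exact conditional binomial (Clopper-Pearson) intervals at 95%, and a 0 allows up to 3 counts. They cover counting error only, because each group is 1 library. Reads carry no molecular identifiers, so copies of the same molecule were not told apart and the intervals may be too narrow. No p-value was computed. Intervals for a difference of log2 folds used the delta method. These functions were tested on simulated data. Exon lengths are unions of GENCODE 29 basic exons; gene positions and promoters are RefSeq GRCh38.p14, counted from 1. Alternatives were DESeq2 factors, total counts, other filters, a prior count of 0.5, a 2-fold line and centring on gene length. All members are named; related genes are named where they passed 1.5-fold in the coculture comparisons or between monocultures, and some are not reported here. Members and lists were chosen with earlier results of these data known.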

Additional observations from a re-analysis of the deposited data

Results flagged for a closer look

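FASN had coculture folds in opposite directions in the 2 lines, with both counting intervals away from 1: 0.939 in LNCaP tissues (0.928 to 0.949; 58239 counts in the LNCaP coculture against 63153 in the LNCaP monoculture) and 1.07 in PC-3 tissues (1.04 to 1.10; 9540 counts in the PC-3 coculture against 9067 in the PC-3 monoculture). The difference of the log2 folds, LNCaP minus PC-3, was -0.19. It was not tested, because each line has 1 library per condition, and both folds are small beside the 1.5-fold line used elsewhere. The narrow intervals come from the depth of this gene, which had the most counts of any member in the LNCaP libraries. Relative to genes of like length, the log2 fold of FASN was 0.04 in PC-3 tissues, against 0.10 without this adjustment. In LNCaP tissues it was -0.14, against -0.09. Both adjusted values fall outside the counting intervals above.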

How the results depend on the processing

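The count of members past 1.5-fold was 0 higher and 0 lower for both coculture comparisons and for the difference of coculture folds. This held under DESeq2 size factors, total counts, a prior count of 0.5 and centring on gene length. No low-count filter, 5 CPM or more and a 2-fold line also gave 0, but they could not give another value. Every member passed both filters, and a gene short of 1.5-fold is short of 2-fold. For LNCaP against PC-3, 7 to 10 members were higher in monoculture and in coculture and 2 to 6 (monoculture) or 2 to 5 (coculture) lower. Member median log2 folds ranged from 0.03 to 0.09 (LNCaP coculture), 0.09 to 0.10 (PC-3 coculture), 0.18 to 0.30 (lines, monoculture) and 0.11 to 0.15 (lines, coculture). At the 2-fold line 7 members were higher and 2 lower in either comparison, which are the low ends of the ranges of member counts. On scaling and length, directions below 1.5-fold flipped for FDFT1, INSIG1 and FADS1 in LNCaP coculture, MVD, FDPS and HSD17B7 in PC-3 coculture, and PMVK and CYP51A1 between cocultures. No member past 1.5-fold changed direction under any of these alternatives. Members whose log2 fold left its own counting interval numbered 28 of 132 values after centring on gene length, 10 of 132 with DESeq2 size factors and 0 of 132 with total counts or with the smaller prior count.

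Counts over all genes moved with the filter and the line. In PC-3 tissues, 670 higher and 557 lower genes became 1632 and 1175 with no filter, 218 and 174 at 5 CPM or more, and 321 and 146 at 2-fold. In LNCaP tissues, 1113 higher and 1262 lower became 2118 and 1944 with no filter, 531 and 686 at 5 CPM or more, and 644 and 428 at 2-fold. Between the cocultures, 4703 genes higher in LNCaP became 3130 at 2-fold. No replicate could be left out, and no paired analysis was possible because each group holds 1 library. The spread between tissues is therefore unknown, and depth limits ELOVL6 in PC-3 most, at 84 counts in the coculture and 76 in the monoculture.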

Other observations

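PLIN2, the lipid droplet coat gene, had 83 counts in the LNCaP coculture and 10 in its monoculture, against 1838 in the PC-3 coculture and 2010 in its monoculture. It was singled out after its values were seen. In the same libraries the summed fibroblast markers stood at 1556 CPM in the LNCaP coculture, against 131 CPM in the LNCaP monoculture. Which cells held the PLIN2 RNA was not tested.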
